A study of Homo sapiens with 6 samples.

Results

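This account covers 10 genes of the Hippo pathway: targets of the coactivators YAP and TAZ and of their TEAD partners, together with genes that regulate them. They are CTGF, CYR61, ANKRD1, AMOTL1, AMOTL2, LATS2, AJUBA, TEAD1, YAP1 and WWTR1, taken by name from the 58735 genes of the deposited count table, and all 10 were found and tested. RNA was measured in 6 libraries of PANC-1, a human pancreatic cancer line of epithelial origin, labelled wild type. In 3 libraries the cells had shared culture for 72 h with cancer-associated fibroblasts (CAF) made to overexpress PAI-1, here called CAF-PAI-1. In the other 3 the partner was CAF without that overexpression, headed CAF-NC in the table, with NC not explained. The labels name 1 tumour line, except that the RNA protocol names another line and treatments, as described below. They do not say where the fibroblasts came from or how PAI-1 was overexpressed. Nor do they say how PANC-1 was separated from the fibroblasts before extraction.

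In the Hippo pathway a kinase cascade ending in LATS1 and LATS2 phosphorylates YAP (gene YAP1) and TAZ (gene WWTR1), which keeps them in the cytoplasm. When the cascade is off, for example in spread cells under tension, YAP and TAZ enter the nucleus, bind TEAD factors and raise targets such as CTGF, CYR61 and ANKRD1. Several of their targets, among them LATS2 and AMOTL2, restrain YAP and TAZ in turn. The activity of YAP and TAZ is set largely by protein location, which mRNA levels do not report.

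Library totals were 13992583 to 15880653 counts with CAF-PAI-1 and 13628508 to 16006880 with CAF-NC. CAF-PAI-1 replicate 2 stood apart somewhat from its group, with 3.78% mitochondrial counts against 4.76% and 5.12% in the other two, and 5.53% to 5.92% with CAF-NC. Levels are given as CPM (counts scaled to library size with TMM factors), with SD over 3 libraries. The marker sums and the 1 CPM limit for markers are exceptions and used library totals alone. TMM factors were 0.970 to 0.986 with CAF-PAI-1 and 1.02 to 1.03 with CAF-NC. Scaling with them would raise the CAF-PAI-1 sums and lower the CAF-NC sums. Among 12 markers of fibroblasts, 8 never reached 1 CPM, including DCN, LUM, COL1A2, PDGFRA and FAP. The summed fibroblast level, made up mostly of FBLN1 and MMP2, was 162 to 172 CPM with CAF-PAI-1 and 169 to 180 CPM with CAF-NC, and none of the 4 fibroblast markers tested changed in edgeR. Of 6 ductal epithelial markers 4 rose, all keratins with KRT8 the most abundant, where 17.2% of all genes tested rose. EPCAM and CDH1 did not pass, with log2 fold changes of 0.19 and -0.73 (edgeR adjusted p = 0.379 and 0.115). The epithelial sum was 1982 to 2271 CPM with CAF-PAI-1 and 1826 to 1918 CPM with CAF-NC. The RNA protocol names Cal27, a squamous line, and treatment with Stattic or DMSO. No other label mentions Cal27 or these treatments, and the markers do not address the treatments. KRT5, KRT14 and DSG3 had at most 1 count in any library, while TP63, the other squamous marker, had 0 to 15. Leukocyte and squamous markers were all under 1 CPM, as were 3 of 4 endothelial ones, while the fourth, KDR, averaged 1.85 ± 0.61 CPM with CAF-PAI-1 and 0.83 ± 0.22 with CAF-NC and was called higher (edgeR adjusted p = 0.0172). The part of these marker shifts in the results was not tested, and in bulk RNA fewer cells of a type and less RNA per cell cannot be told apart.

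With CAF-PAI-1, 6 of the 10 genes rose and none fell. They were CTGF, CYR61, ANKRD1, AMOTL2, LATS2 and AJUBA, with rises of 3.77, 2.67, 3.95, 1.52, 1.23 and 1.12-fold. The other 4, YAP1, WWTR1, TEAD1 and AMOTL1, did not pass the threshold, and their fold changes lay between 0.953 and 1.04. "Rose" and "fell" mean a Benjamini-Hochberg adjusted p under 0.05 over all 14960 genes tested with edgeR's quasi-likelihood test. Of all genes tested 32.2% passed, 17.2% higher and 15.0% lower, so that a call in itself is common here. The 10 genes were chosen with earlier results of these data known, so their count beside these shares is description only. The median log2 fold change of the 10 genes was 0.23, and that of all genes tested was -0.0015. No member had a lower value at an unadjusted p under 0.05, and DESeq2 and limma-voom also gave 0 lower members. In TMM-scaled CPM the groups did not overlap for 6 of the 10, the same 6 that rose, where 43.4% of all genes tested had no overlap.

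**Figure D1:**
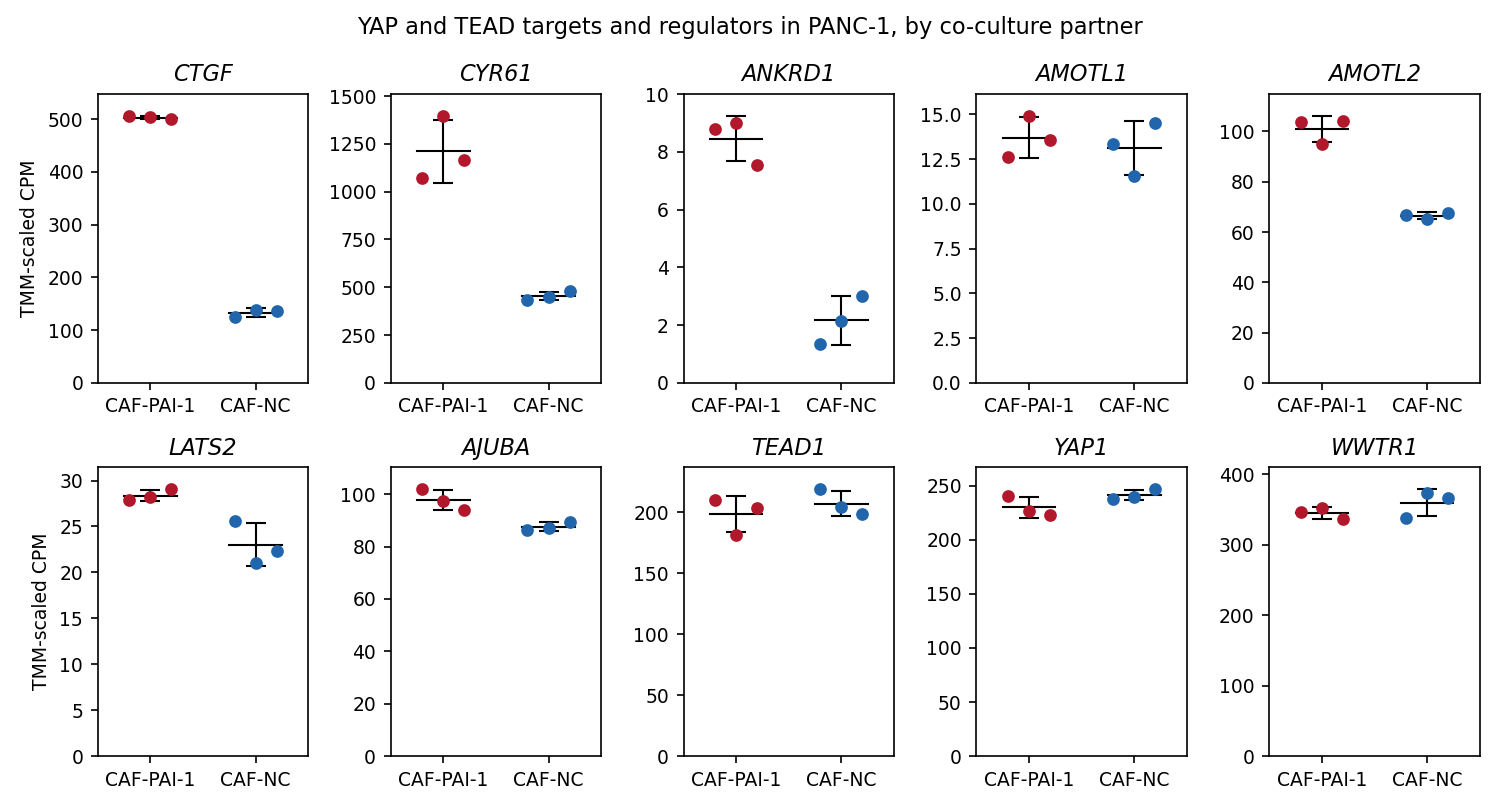
TMM-scaled CPM (vertical axes, each starting at 0) of the 10 genes in PANC-1 with CAF-PAI-1 (red, left) and with CAF-NC (blue, right). Points are libraries, lines are means and bars are SD over 3 libraries. CTGF lies at 500.1 to 505 CPM with CAF-PAI-1 and at 124 to 139 CPM with CAF-NC, while the groups overlap for AMOTL1, TEAD1, YAP1 and WWTR1.

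CTGF encodes a secreted matricellular protein, a member of the CCN family, and is among the most used readouts of YAP and TEAD. It is ENSG00000118523, at chr6:131948176-131951373 on the minus strand of GRCh38. CTGF had 505, 504 and 500.1 CPM in the CAF-PAI-1 libraries, against 124, 139 and 137 CPM in the CAF-NC libraries. The CAF-PAI-1 libraries lay close together, with a coefficient of variation of 0.535%, and every one of them was far above every CAF-NC library. With CAF-NC the coefficient of variation was 5.98%, and 3 libraries estimate a spread only roughly. The log2 fold change was 1.92 (SE 0.056, edgeR adjusted p = 1.86e-23), and 0.274% of all genes tested had a larger change in either direction.

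CTGF's promoter is shown because TEAD factors are known to act there. RefSeq's table on GRCh38.p14 gives these bases before its transcript start, printed without the base next to the start, with matches to the TEAD core motif GGAATG in capitals. They lie at chr6:131951374-131951622, minus strand.
CTGF: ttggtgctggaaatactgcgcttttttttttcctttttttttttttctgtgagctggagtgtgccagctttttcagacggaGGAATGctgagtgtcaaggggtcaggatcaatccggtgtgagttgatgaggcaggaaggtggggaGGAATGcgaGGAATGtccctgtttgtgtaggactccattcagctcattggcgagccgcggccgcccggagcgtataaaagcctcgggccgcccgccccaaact

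The stretch held 3 TEAD core matches, which begin 169, 104 and 95 bases before the start. Among 35116 windows of 250 bases before RefSeq starts, 11.9% held at least 1 match on either strand and 0.0826%, or 29 windows, held at least 3. It held no match to the AP-1 motif TGANTCA, present in 6.57% of windows, nor to the CArG box of serum response factor, present in 1.16%. A match is only a run of letters, and binding was not measured.

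CYR61 encodes another secreted CCN family protein and is likewise a standard YAP target. It is ENSG00000142871, at chr1:85580761-85583962 on the plus strand. CYR61 had 1074, 1395 and 1168 CPM with CAF-PAI-1, against 436, 447 and 478 CPM with CAF-NC. The groups were well separated, and the CAF-PAI-1 libraries were spread more widely than those of CTGF, with replicate 2 highest. CYR61 rose by 1.42 on the log2 scale (SE 0.075, edgeR adjusted p = 1.27e-11), and by 1.30 without that library.

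ANKRD1 encodes a nuclear and sarcomeric ankyrin repeat protein and is a further common YAP readout. It is ENSG00000148677, at chr10:90912096-90921276 on the minus strand. Its counts were low, 130, 124 and 117 with CAF-PAI-1 and 22, 34 and 42 with CAF-NC. This equals 8.80, 9.01 and 7.56 CPM with CAF-PAI-1, against 1.34, 2.14 and 3.02 CPM with CAF-NC. The lowest CAF-PAI-1 library was still above the highest CAF-NC library, although the CAF-NC libraries differed among themselves by more than in any other member, with a coefficient of variation of 38.9%. ANKRD1 rose by 1.98 on the log2 scale (SE 0.21, edgeR adjusted p = 4.75e-09), with a 95% interval of 1.55 to 2.42, which holds the value of CTGF.

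Around ANKRD1's RefSeq start there were 2 TEAD core matches and 1 AP-1 match (TGANTCA) in the 250 bases before it, and 0.94% of windows held at least 2 TEAD core matches. They are shown as stretches of 30 bases, minus strand, GRCh38.p14, with the match in capitals, since, of the 8 members whose windows were searched, ANKRD1 and CTGF had more than 1 match. The TEAD stretches lie at chr10:90921290-90921319 and chr10:90921198-90921227, and the AP-1 stretch at chr10:90921265-90921294.
ANKRD1 far TEAD core: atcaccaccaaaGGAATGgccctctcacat
ANKRD1 near TEAD core: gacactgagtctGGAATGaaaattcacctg
ANKRD1 AP-1: cacatttcttccTGATTCAcatattcagca

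AMOTL2, LATS2 and AJUBA had smaller fold changes than CTGF, CYR61 and ANKRD1. AMOTL2 encodes angiomotin-like 2, a junctional scaffold that binds YAP and TAZ and holds them outside the nucleus. It is ENSG00000114019, at chr3:134355874-134375479 on the minus strand. AMOTL2 had 104, 94.9 and 104 CPM with CAF-PAI-1, against 66.7, 65.1 and 67.7 CPM with CAF-NC. No CAF-PAI-1 library came near the CAF-NC range, and the log2 fold change was 0.60 (SE 0.063, edgeR adjusted p = 2.78e-09). Of its 2 RefSeq starts, the inner one had 1 TEAD core match, read on the other strand as CATTCC, at chr3:134374499-134374528.
AMOTL2: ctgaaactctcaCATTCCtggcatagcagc

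Its relative AMOTL1, also an angiomotin family scaffold, was much less abundant and did not pass the threshold. AMOTL1 is ENSG00000166025, at chr11:94706431-94876753 on the plus strand. AMOTL1 had 12.6, 14.9 and 13.6 CPM with CAF-PAI-1, against 13.4, 11.5 and 14.5 CPM with CAF-NC, so that the groups overlapped throughout. Its log2 fold change was 0.06, with a 95% interval of -0.19 to 0.31 (edgeR adjusted p = 0.745), and it was -0.01 with libraries scaled by size alone. There were 7.37 AMOTL2 counts per AMOTL1 count with CAF-PAI-1 and 5.07 with CAF-NC (geometric means of 3 libraries). The log2 ratio was higher in every CAF-PAI-1 library than in any CAF-NC library, by 0.54 on average, with p = 0.1 in an exact two-sided permutation test. That is the smallest p that 3 libraries against 3 can give, and it was 0.167 after Benjamini-Hochberg adjustment over the 5 gene pairs compared.

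LATS2 encodes one of the kinases that phosphorylate YAP and TAZ. It is ENSG00000150457, at chr13:20973032-21061547 on the minus strand. LATS2 had 27.9, 28.2 and 29.0 CPM with CAF-PAI-1, against 25.6, 21.0 and 22.4 CPM with CAF-NC. The CAF-PAI-1 libraries lay close together and above all of the others, but CAF-NC replicate 1 was not far below them. LATS2 rose by 0.30 on the log2 scale (SE 0.093, edgeR adjusted p = 0.0123). The call was lost without CAF-NC replicate 2 (adjusted p = 0.0906) and with libraries scaled by size alone (0.0549), the range over all alternatives being 0.00536 to 0.0906.

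LATS1, the companion kinase, had 50.9 ± 4.61 CPM with CAF-PAI-1 and 54.0 ± 0.89 CPM with CAF-NC (SD, n = 3 each) and did not pass (log2 fold change -0.08, edgeR adjusted p = 0.41). There were 0.559 LATS2 counts per LATS1 count with CAF-PAI-1 and 0.425 with CAF-NC. This ratio too was higher in all CAF-PAI-1 libraries (difference 0.39 on the log2 scale, exact two-sided permutation p = 0.1, 0.167 adjusted over the pairs).

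AJUBA encodes a LIM domain protein that binds LATS kinases and holds them at junctions, and so acts in favour of YAP. It is ENSG00000129474, at chr14:22971174-22982642 on the minus strand. AJUBA had 102, 97.5 and 94.1 CPM with CAF-PAI-1, against 86.3, 87.3 and 89.5 CPM with CAF-NC. The groups did not overlap, but the gap between them was narrow. AJUBA rose by 0.16 on the log2 scale (SE 0.061, edgeR adjusted p = 0.045), close to the threshold, and the call was lost in 9 of 14 alternatives, with adjusted p from 0.0377 to 0.261 over the 14. Per count of LIMD1, a related LIM protein with the same role towards LATS, there were 1.16 AJUBA counts with CAF-PAI-1 and 0.946 with CAF-NC, with overlapping groups (exact two-sided permutation p = 0.2, 0.25 adjusted over the pairs). The difference of this log2 ratio was 0.29, and 0.14 without CAF-PAI-1 replicate 2. The inner of 2 RefSeq starts of AJUBA had 1 TEAD core match, at chr14:22976884-22976913, minus strand.
AJUBA: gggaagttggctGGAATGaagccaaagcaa

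The coactivators and their main DNA-binding partner were abundant in both groups and did not pass the threshold. YAP1 is ENSG00000137693, at chr11:102110461-102233423 on the plus strand. YAP1 had 241, 227 and 223 CPM with CAF-PAI-1, against 238, 239 and 246 CPM with CAF-NC. The CAF-PAI-1 libraries reached lower, and replicate 1 fell within the CAF-NC range. The log2 fold change was -0.07 with a 95% interval of -0.18 to 0.04 (edgeR adjusted p = 0.349). With libraries scaled by size alone it was -0.14 and passed (adjusted p = 0.047), the only member called lower under any alternative. A scaling by size alone also shifted the median of all genes tested by -0.067.

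WWTR1, which encodes TAZ, is ENSG00000018408, at chr3:149517235-149736714 on the minus strand. WWTR1 had 347, 352 and 336 CPM with CAF-PAI-1, against 339, 374 and 367 CPM with CAF-NC. The groups overlapped, and the log2 fold change was -0.06 with a 95% interval of -0.17 to 0.05 (edgeR adjusted p = 0.429). There were 1.50 WWTR1 counts per YAP1 count with CAF-PAI-1 and 1.49 with CAF-NC, a difference of 0.011 on the log2 scale that changes sign when some libraries are left out (exact two-sided permutation p = 0.8).

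TEAD1 encodes a TEA domain factor through which YAP and TAZ reach DNA. It is ENSG00000187079, at chr11:12674591-12944483 on the plus strand. TEAD1 had 210.3, 182 and 204 CPM with CAF-PAI-1, against 219, 204 and 199 CPM with CAF-NC. CAF-PAI-1 replicate 2 was the lowest of the 6 libraries and the other values interleaved. The log2 fold change was -0.06 with a 95% interval of -0.18 to 0.06 (edgeR adjusted p = 0.465). For these 3 genes the intervals leave room for small differences of either sign and end well short of the rises of CTGF, CYR61 and ANKRD1.

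**Figure D2:**
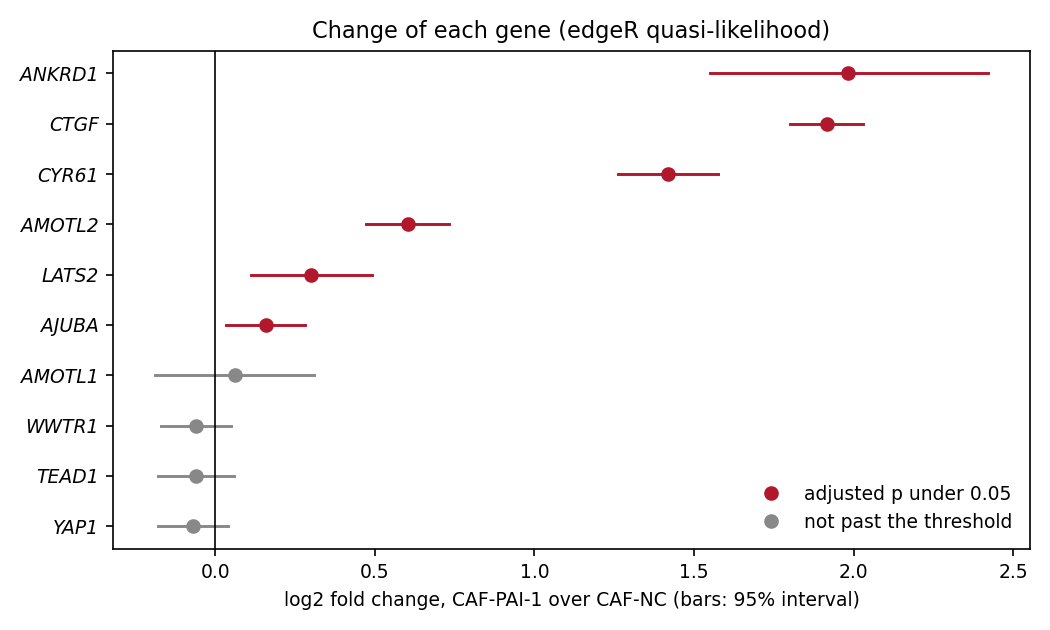
Log2 fold change (horizontal axis, CAF-PAI-1 over CAF-NC) of the 10 genes with 95% intervals from edgeR, sorted by size, with genes past an adjusted p of 0.05 in red and the others in grey. ANKRD1, CTGF and CYR61 lie between 1.42 and 1.98, AMOTL2 at 0.60, LATS2 and AJUBA at 0.30 and 0.16, and the intervals of AMOTL1, WWTR1, TEAD1 and YAP1 cross 0.

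CTGF and CYR61 were also set against each other within each library. The ratio was 0.418 CTGF counts per CYR61 count with CAF-PAI-1 and 0.294 with CAF-NC, which does not depend on the scaling between libraries. The log2 ratio was -1.09, -1.47 and -1.22 in the CAF-PAI-1 libraries, against -1.81, -1.69 and -1.81 in the CAF-NC libraries. No value of one group reached the other, the nearest being CAF-PAI-1 replicate 2, where CYR61 was highest (exact two-sided permutation p = 0.1, 0.167 adjusted over the pairs).

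Levels of different genes were compared as TMM-scaled CPM per kilobase of annotated exon. With CAF-PAI-1 the order was CYR61 at 494 ± 67.2, CTGF at 215 ± 1.15, WWTR1 at 41.0 ± 0.96, YAP1 at 36.5 ± 1.50 and TEAD1 at 19.3 ± 1.46 (SD, n = 3). AMOTL2 at 16.9 and AJUBA at 16.4 followed with overlapping libraries, then LATS2 at 5.09, ANKRD1 at 4.27 and AMOTL1 at 1.36. With CAF-NC the first 5 stood in the same order, at 185 ± 9.03, 57.0 ± 3.41, 42.8 ± 2.24, 38.3 ± 0.73 and 20.2 ± 1.01. Then came AJUBA at 14.7, AMOTL2 at 11.1, LATS2 at 4.12, AMOTL1 at 1.31 and ANKRD1 at 1.09, of which AMOTL1 and ANKRD1 overlapped. On this scale CTGF was thus close above WWTR1 with CAF-NC and far above it with CAF-PAI-1, and ANKRD1 was above AMOTL1 with CAF-PAI-1 and not separable from it with CAF-NC. These orders depend on the division by length, which counts all annotated exons, used or not. In CPM alone, WWTR1 at 360 was above CTGF at 133 with CAF-NC. Likewise AMOTL1 at 13.7 CPM was above ANKRD1 at 8.46 CPM with CAF-PAI-1.

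Promoter windows were searched for 8 of the 10 genes, all but CYR61 and TEAD1, 11 windows in all. A TEAD core match was held by 5 windows of 5 genes, where 11.9% of the 35116 RefSeq windows held at least 1. The genes were listed as YAP and TEAD targets or regulators, so this comparison is description only. AMOTL1, LATS2, WWTR1 and the outer starts of AMOTL2 and AJUBA had none in these 250 bases. The windows of AMOTL1 and WWTR1 lay inside the annotated genes, so the bases before their outermost annotated starts were not searched. YAP1, which did not pass the threshold, had 1 match, at chr11:102110273-102110302, plus strand, shown because it sits before a gene whose level did not pass.
YAP1: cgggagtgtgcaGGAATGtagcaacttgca

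**Figure D3:**
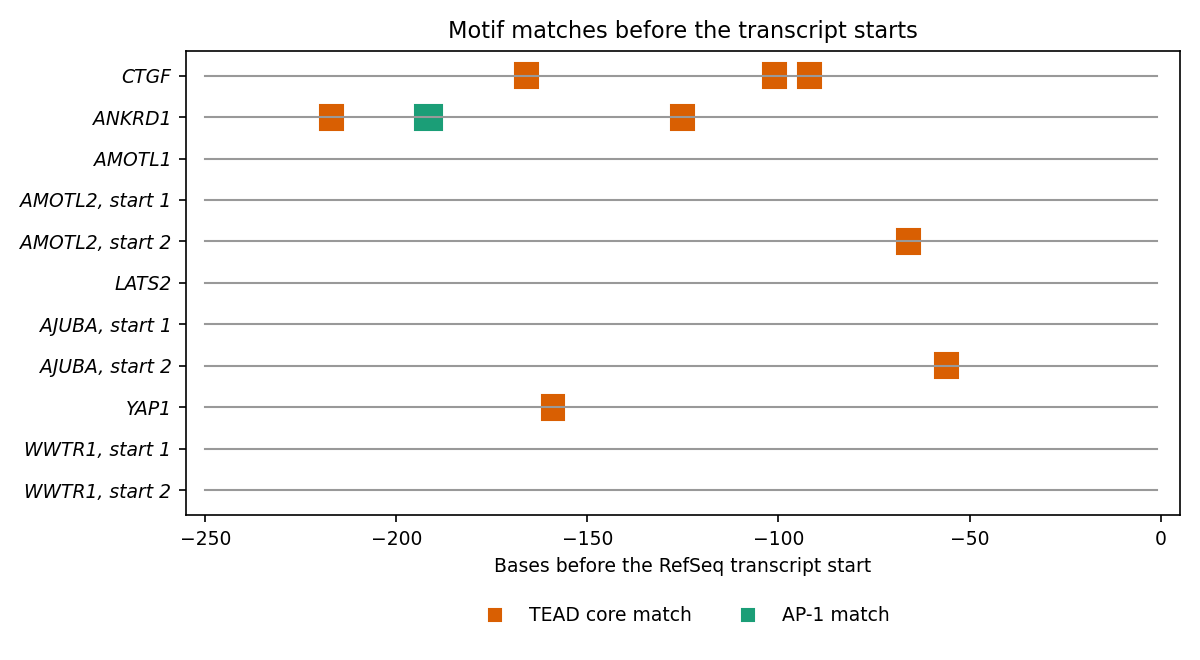
Matches to the TEAD core (orange) and the AP-1 motif (green) on either strand in the 250 bases before each RefSeq start (horizontal axis, bases before the start) of the 8 genes found. CTGF has 3 TEAD core matches and ANKRD1 2 with 1 AP-1 match, while AMOTL2, AJUBA and YAP1 have 1 TEAD core match each.

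Other targets of YAP and TEAD were taken from the rest of a published pan-cancer target signature. All 17 were tested, 7 rose and none fell, where 17.2% of all genes tested rose and 15.0% fell. This list too was chosen with earlier results of these data known, so the comparison is description only. Their median log2 fold change was 0.32. No member was lower at an unadjusted p under 0.05 or with DESeq2 or limma-voom. NUAK2, a kinase of the AMPK family that acts in favour of YAP, averaged 61.3 ± 3.94 CPM with CAF-PAI-1 and 20.5 ± 0.69 with CAF-NC (SD, n = 3 each), a log2 fold change of 1.58 (SE 0.080, edgeR adjusted p = 6.06e-17). GADD45A, a stress-induced growth arrest gene, had 123 ± 13.1 CPM with CAF-PAI-1 and 42.3 ± 1.24 with CAF-NC. IGFBP3, an insulin-like growth factor binding protein, rose by 1.02, and NT5E, the CD73 ectonucleotidase, by 0.56 on the log2 scale. F3, FJX1 and DOCK5 also rose, with log2 fold changes of 1.83, 0.62 and 0.32, where F3, tissue factor, was low at 4.88 ± 0.87 CPM with CAF-PAI-1 and 1.37 ± 0.75 with CAF-NC.

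The other 10 targets did not pass, among them the most abundant of the list, MYOF. MYOF, which encodes myoferlin, had 801 ± 48.4 CPM with CAF-PAI-1 and 825 ± 1.26 CPM with CAF-NC, a log2 fold change of -0.04 (edgeR adjusted p = 0.581). CRIM1, a transmembrane BMP antagonist, had 553 ± 28.1 CPM with CAF-PAI-1 and 524 ± 15.1 CPM with CAF-NC (0.08, adjusted p = 0.285). AXL, a receptor tyrosine kinase, had a log2 fold change of 0.10 and also did not pass (adjusted p = 0.172).

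Of 19 other kinases, adaptors and inhibitors of the Hippo pathway, 6 rose and 2 fell, where 17.2% of all genes tested rose and 15.0% fell, and the median log2 fold change was -0.03. WTIP, a LIM protein of the AJUBA family, had 66.8 ± 1.47 CPM with CAF-PAI-1 and 29.1 ± 3.27 CPM with CAF-NC (log2 fold change 1.19, SE 0.079, edgeR adjusted p = 4.7e-14). FRMD6, a FERM domain protein, had 159 ± 5.43 CPM with CAF-PAI-1 and 87.7 ± 1.08 CPM with CAF-NC (0.86, SE 0.058, adjusted p = 8.16e-14). NF2, which encodes merlin and activates the cascade, rose by 0.42, TAOK2, an upstream kinase, by 0.26, WWC1, the KIBRA scaffold, by 0.34 and STK4, the MST1 kinase, by 0.16. The STK4 call was lost in 6 of 14 alternatives, with adjusted p from 0.0108 to 0.239 over the 14, against 0.0384 as reported. The falls were in STK3, the MST2 kinase, at -0.41 (adjusted p = 0.00106) and AMOT, the founding angiomotin, at -0.37 (adjusted p = 0.00151). MOB1A, a LATS cofactor, and PTPN14, a phosphatase that binds YAP and is also in the target signature, were the most abundant that did not pass, with log2 fold changes of -0.07 each.

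Among the other TEAD factors and their VGLL cofactors, 5 of 7 were tested, and VGLL1 and VGLL2 had no count in any library. TEAD4 averaged 28.4 ± 2.38 CPM with CAF-PAI-1 and 21.4 ± 0.89 CPM with CAF-NC and rose by 0.40 (SE 0.094, edgeR adjusted p = 0.00101). TEAD2 had 26.2 ± 2.88 CPM with CAF-PAI-1 and 34.2 ± 2.74 CPM with CAF-NC and fell by 0.38 on the log2 scale (SE 0.092, adjusted p = 0.00146). VGLL3, at 5.47 ± 0.73 CPM with CAF-PAI-1 and 3.88 ± 0.22 CPM with CAF-NC, rose by 0.50 (adjusted p = 0.041), a call lost in 9 of 14 alternatives, with adjusted p from 0.0367 to 0.188 over the 14. TEAD3 and VGLL4, with log2 fold changes of -0.10 and -0.01, did not pass. Of the other CCN genes, WISP2 had 121 ± 7.68 CPM with CAF-PAI-1 and 55.0 ± 2.40 CPM with CAF-NC and rose by 1.13 (SE 0.066, adjusted p = 1.85e-15). NOV, at 3.02 ± 0.37 CPM with CAF-PAI-1 and 2.20 ± 0.39 CPM with CAF-NC, did not pass (log2 fold change 0.46, adjusted p = 0.169), while WISP1 and WISP3 were too low to test.

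**Figure D4:**
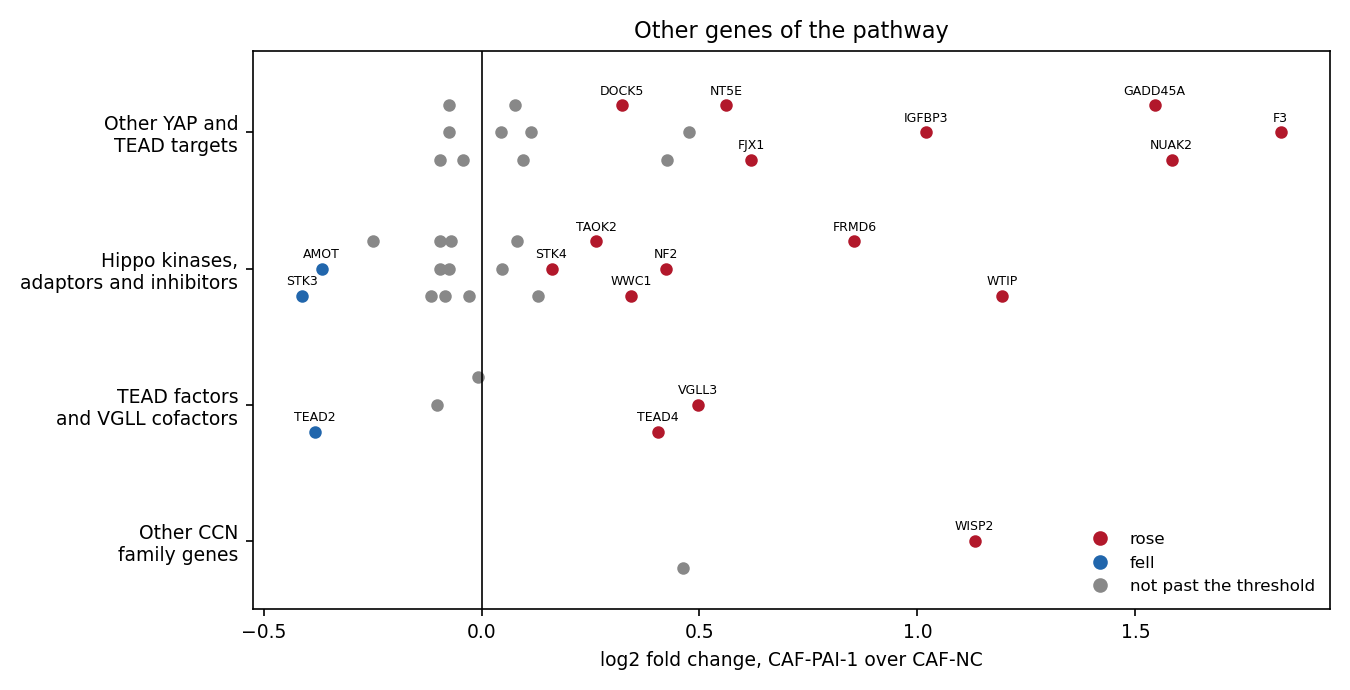
Log2 fold change (horizontal axis, CAF-PAI-1 over CAF-NC) of the tested genes of 4 lists that hold none of the 10 genes. Each list has 1 point a gene, and PTPN14 is in both the target and the Hippo kinase list. Genes that rose are in red, that fell in blue and that did not pass in grey. The target list has 7 red points and no blue one, while the Hippo kinase list has 6 red and 2 blue.

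The genes most like CTGF and CYR61 over the 6 libraries were sought among 10952 tested genes of at least 5 CPM, by the root mean square distance of mean-centred log2 CPM. Nearest to CTGF were JUN, HMOX1 and DUSP5, at distances of 0.081, 0.084 and 0.101. Nearest to CYR61 were GADD45A, ARRDC3 and SPHK1, at 0.073, 0.075 and 0.084. GADD45A is the only one of the 6 in the target signature above. With 2 groups of 3 libraries this measure mostly follows the size of the group difference.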

How the data were processed

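Poly(A) RNA was sequenced in 6 PANC-1 libraries, per the labels' protocols. The authors deposited whole-number counts per gene. BWA, Bowtie2, RSEM and hg19 are named, without roles, in the submitters' processing notes. The sources used here do not state how whole numbers arose or if strand was counted. All 58735 identifiers are in GENCODE release 29 (GRCh38), which differs from hg19, so coordinates identify genes only. For 27 genes the deposited name was replaced with the GENCODE name of the same identifier. Annotated genes that overlap a member, or are named as its pseudogene, had at most 12 counts in any library.

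Tests on counts used edgeR 4.0.16 under R 4.3.3 (filterByExpr with minimum count 10 and total 15, TMM, robust glmQLFit, glmQLFTest, no covariates); it gave every adjusted p printed without another tool's name. Each SE is the log2 fold change, without shrinkage, divided by the square root of F. The method was tested on simulated data. The biological coefficient of variation was 6.06%, and 3 counts equal 0.187 to 0.22 CPM. Replicates differed beyond sampling noise (chi-square per degree of freedom 2.58 to 9.51 in pairs within a group). The labels call them biological replicates without saying what was separate, and the p-values reflect spread among the libraries only, which may be partly technical.

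Members and lists were chosen with earlier results of these data known. Named beyond the members were, per list, up to 4 called genes with the smallest p and up to 2 most abundant genes not called. AXL, KDR, LATS1, LIMD1 and the further called genes of each list were named after their values were seen. Pair ratios used log2 of counts + 0.5. Exon length is the union of all annotated exons. Promoters are RefSeq's, on GRCh38.p14, found for CCN2 (CTGF) and 7 other members. Alternatives were RLE scaling, size alone, other filters, DESeq2 1.42.0, limma-voom 3.58.1, no robust fit, a replicate block and leaving out single libraries.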

Additional observations from a re-analysis of the deposited data

How the results depend on the processing

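CTGF, CYR61, ANKRD1 and AMOTL2 were called higher in all 14 alternatives, with log2 fold changes of 1.85 to 1.95, 1.30 to 1.50, 1.72 to 2.28 and 0.54 to 0.64, and TEAD1, WWTR1 and AMOTL1 were called in none. Higher members numbered 4 to 6, LATS2 and AJUBA being those lost. Scaling by library size alone gave 1839 genes higher and 3182 lower in all, against 2571 and 2239 with TMM. It also gave 1 lower member (YAP1), 5 lower Hippo kinases, adaptors and inhibitors in place of 2, and 1 higher TEAD or VGLL gene in place of 2. The last count was also 1 with no filter on low counts, with DESeq2 and with limma-voom, and 1 to 2 with a library left out. The difference of the WWTR1 to YAP1 log2 ratio ran from -0.022 to 0.046 with a library left out, changing sign without CAF-PAI-1 replicate 2 or CAF-NC replicate 1. The cause of these shifts was not tested. Deviations of same-numbered libraries from their group means correlated at 0.0023 to 0.012, and those of differently numbered libraries at -0.010 to 0.0047. With 3 libraries a group, correlations near 0 cannot exclude a pairing. With the replicate block 2708 genes were higher and 2361 lower, and the members remained 6 higher and 0 lower. Depth limits ANKRD1 most, with 22 counts in its lowest library.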
